A study of Homo sapiens with 9 samples.

Results

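Ribosomes are assembled in the nucleolus, and 40 genes for nucleolar proteins of this process were followed across the 9 RNA-seq libraries of a knockdown study in MDA-MB-468 cells. The members were a list of symbols: RNA polymerase I (Pol I) and its partners (4 genes), the core proteins of small nucleolar ribonucleoproteins, called snoRNPs (7), the small-subunit processome and its late factors (12), large-subunit assembly factors (13), and nucleolar proteins with several roles (4). All 40 of the 31004 genes in the table were found by identifier, and 39 of them were among the 11875 genes that reached 1 FPKM (fragments per kilobase of gene model, scaled to the depth of the library) in at least 3 libraries. NOP2, an rRNA methyltransferase of the large subunit, did not. MDA-MB-468 is an established basal-like breast cancer line of the triple-negative kind. Its cells, grown in DMEM with 10% serum, were infected at a multiplicity of infection of 10 with lentivirus for a control hairpin (shNC, genotype WT) or a hairpin against the long noncoding RNA FAM83H-AS1 (shFAM83H-AS1_1 or shFAM83H-AS1_2, called hairpin 1 and hairpin 2 below). All 3 groups therefore carried virus and hairpin and were kept as stable lines under 1 µg/mL puromycin, and 3 libraries per group were made from 2 µg of total RNA. Whether the libraries of a group come from separate cultures is not stated, so the p-values below measure the spread between these libraries, which may be technical.

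Pol I transcribes the large rRNA precursor. Guide snoRNPs then mark it, box C/D particles by methylation of the ribose and box H/ACA particles by pseudouridylation, while the small-subunit processome folds and cleaves the part that becomes the small subunit. Other factors assemble the large subunit, and the ribosomal proteins join on the way. Growing cancer cells need this machinery at a high level, and the transcription factor MYC, which binds the E-box CACGTG, is known to raise many of its genes.

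The target fell with hairpin 1. FAM83H-AS1 was listed at 17.9, 17.5 and 14.3 FPKM in the shNC libraries, 7.37, 5.54 and 4.93 with hairpin 1 and 8.56, 7.92 and 7.46 with hairpin 2, so no hairpin library reached a control. The means were 35.9% and 48.2% of control, with log2 changes of -1.35 (limma adjusted p = 0.00637) and -0.96 (limma adjusted p = 0.142), and the exact two-sided permutation p was 0.1 for each, the smallest that 3 against 3 libraries allow. Depth was 15270673 to 18115070 reads. Hairpin 1 replicate 3 stood apart: its correlations over genes with replicates 1 and 2 were lower than those of any other replicate pair (up to 0.950 against 0.979 and above), and it held the fewest genes at 1 FPKM, 10665 against 11064 to 11807. Its median log2 difference from the control mean over all tested genes was -0.19. Values without it are given below for the members, their subgroups and the pathway lists, but not for splits by particle, motif or snoRNA. They are also given for members listed library by library where they differ by over 1.5 times or change a call. The line's markers were present, with 10 of 10 basal-like epithelial genes at 1 FPKM or more in every group (summed level 685 to 841 FPKM with shNC, 585 to 864 with hairpin 1, 697 to 883 with hairpin 2). ERBB2 was above 1 FPKM and ESR1 was not. Of 4 leukocyte and 3 endothelial markers none reached 1 FPKM in a group mean. Of 4 fibroblast markers 2 were in the table, and COL1A1 reached 1 FPKM with both hairpins; their summed level was 0.711 to 1.12 FPKM with shNC, 1.65 to 2.80 with hairpin 1 and 1.43 to 2.39 with hairpin 2. COL1A1 stood at 0.840 ± 0.214 FPKM with shNC, 2.08 ± 0.578 with hairpin 1 and 1.73 ± 0.497 with hairpin 2 (SD, n = 3 each). The part of these genes in the results was not tested.

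Because most members were lower together, their promoters are shown first. RefSeq windows of 300 bases (build GRCh38.p14, 250 bases before to 50 after the gene's start) were at hand for 33 of the 40 members, all but NOP58, TCOF1, NOLC1, RRP12, RRP1B, RRS1 and DDX18. The E-box CACGTG, which reads the same on both strands, was in 13 of these 33 windows (39.4%). It was in 10.4% of the windows of 8725 tested genes, in 7.43% of all 27305 windows, in 24.4% of those of 119 other ribosome biogenesis genes and in 4.26% of those of 47 cytosolic ribosomal protein genes. In 5 members the motif lay wholly before the start, in 1 it crossed the start, and in 7 it began between bases 4 and 36 counted from the start, so that with only the 250 bases before the start the share was 15.2%, against 9.1% of tested genes and 12.6% of the other ribosome biogenesis genes. UTP4 and UTP14A are shown because their p for the average of both hairpins against shNC was among the smallest of their subgroup; NOP10 and FBL, added after their values were seen, are 2 members that were not lower. Each line runs 5′ to 3′ along the gene, and capitals mark CACGTG.
UTP4: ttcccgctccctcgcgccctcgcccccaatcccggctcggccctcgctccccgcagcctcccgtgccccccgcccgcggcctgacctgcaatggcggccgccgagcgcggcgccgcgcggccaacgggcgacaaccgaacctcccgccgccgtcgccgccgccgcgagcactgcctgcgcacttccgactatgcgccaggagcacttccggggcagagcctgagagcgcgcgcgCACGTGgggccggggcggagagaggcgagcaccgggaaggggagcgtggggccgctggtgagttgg
UTP14A: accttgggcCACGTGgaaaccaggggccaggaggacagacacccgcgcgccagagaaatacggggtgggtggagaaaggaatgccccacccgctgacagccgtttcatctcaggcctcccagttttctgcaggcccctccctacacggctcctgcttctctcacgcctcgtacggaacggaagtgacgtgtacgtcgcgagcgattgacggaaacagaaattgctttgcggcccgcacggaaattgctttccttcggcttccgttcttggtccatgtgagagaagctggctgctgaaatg
NOP10: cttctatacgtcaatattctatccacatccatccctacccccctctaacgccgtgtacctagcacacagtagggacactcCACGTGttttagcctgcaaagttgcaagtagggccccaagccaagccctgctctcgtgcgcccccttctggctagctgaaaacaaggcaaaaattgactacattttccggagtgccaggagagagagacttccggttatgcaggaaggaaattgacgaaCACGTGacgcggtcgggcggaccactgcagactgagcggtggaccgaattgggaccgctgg
FBL: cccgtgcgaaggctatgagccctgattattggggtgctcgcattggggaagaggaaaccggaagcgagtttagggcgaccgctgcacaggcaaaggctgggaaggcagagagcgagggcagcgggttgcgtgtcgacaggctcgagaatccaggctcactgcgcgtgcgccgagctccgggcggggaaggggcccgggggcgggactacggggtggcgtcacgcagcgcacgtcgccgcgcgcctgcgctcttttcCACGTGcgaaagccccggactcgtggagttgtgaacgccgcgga
These windows are chr16:69132399-69132698 (plus strand), chrX:129905914-129906213 (plus), chr15:34343087-34343386 (minus) and chr19:39846330-39846629 (minus). The motif began 16 bases before the start in UTP4, 241 before it in UTP14A, 170 and 11 before it in NOP10, and at base 7 in FBL. Both the lower genes and those that were not lower thus carried the motif. The 12 tested members with CACGTG had a median log2 change of -0.58 with hairpin 1 and -0.26 with hairpin 2, and the 20 without it had -0.71 and -0.30. The hairpin 1 medians include the outlying replicate 3 and were not computed without it, so nothing is drawn from their difference. The other motif searched, TCGCGA, also the same on both strands and with no overlap with CACGTG, was in 15.2% of the members' windows, 6.32% of those of tested genes and 25.5% of those of ribosomal protein genes. These are letters in a window, and binding was not measured.

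The comparison of each hairpin with shNC asks what happened to the members as a group when the target was lowered. With hairpin 1, 37 of the 39 tested members had a negative log2 change, with a median of -0.67 where all tested genes had -0.08 and 58.0% of them were negative. The members' values ranged from -1.37 for LYAR to 0.14 for NOP10. With hairpin 2, 35 of 39 were negative (51.8% of tested genes), with a median of -0.30 against -0.01 over all genes and a range from -0.58 for DDX21 to 0.17 for FBL. Log2 changes are of FPKM + 1 and were fitted with limma over all tested genes, and the added 1 understates the change of members with low FPKM: UTP20 had -0.80 with hairpin 1 on this scale and -1.41 as a difference of mean log2 FPKM with nothing added. Both UTP20 values lean on hairpin 1 replicate 3, at 0.336 FPKM where replicates 1 and 2 had 2.71 and 2.49. On the scale with 1 added, the differences from the control mean were -0.28, -0.37 and -1.75 in replicates 1 to 3. In bulk RNA, less of a transcript in every cell and fewer cells that carry it cannot be told apart, and a share of reads does not measure RNA per cell.

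Only 1 member passed the test with hairpin 1 at an adjusted p under 0.05, UTP4, where 0.64% of tested genes were called lower, 0.935% higher and 1.57% in either direction. Before adjustment, 31 members had a p under 0.05, all lower (13.0% of tested genes lower). In 28 members all 3 hairpin 1 libraries lay below all 3 controls (15.3% of tested genes), and in 1, NOP10, all 3 lay above (14.4%). Without hairpin 1 replicate 3 the median was -0.41 with 38 of 39 negative, and 3 members passed, UTP4, LYAR and NOLC1 (0.749% of tested genes called lower). The number below all controls was again 28 (17.1% of tested genes), and 26 members had an unadjusted p under 0.05, all lower (8.19% of tested genes lower). Without hairpin 1 replicate 2, 14 members passed (4.4% of tested genes called lower) and 31 had an unadjusted p under 0.05 (20.3%). Without hairpin 1 replicate 1, without any 1 of the 3 controls or without any 1 of the 3 hairpin 2 libraries, limma called 0 of 39, where it called 0.0758% to 0.312% of tested genes lower. In these 7 fits 25 to 34 members had an unadjusted p under 0.05, all lower, against 7.74% to 16% of tested genes. Voom on the recovered reads of all 9 libraries also called 0 (0.32% of tested genes lower), with 31 at an unadjusted p under 0.05, all lower (12.9%).

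With hairpin 2, limma called 0 of 39 members, where it called 0.0253% of tested genes, all of them higher and 0 lower. An unadjusted p under 0.05 was found for 3 members, UTP4, UTP14A and WDR3, all lower (2.38% of tested genes lower), and voom on recovered reads also called 0. The 3 groups share 1 estimate of the spread, which includes hairpin 1 replicate 3. Without that library 0 members passed with hairpin 2 (12 of 11875 tested genes called lower). At an unadjusted p under 0.05 there were then 22 members, all lower (837 of 11875 tested genes lower). All 3 hairpin 2 libraries lay below all controls in 23 members (10.9% of tested genes) and above them in 0 (11.1%). The deviations of same-numbered shNC and hairpin 2 libraries from their group means correlated at 0.196, 0.351 and 0.394. Differently numbered libraries were not compared, so pairs by number were not established. In a fit of only the 6 libraries of shNC and hairpin 2 with the replicate number as a block, 8 members passed, all lower (2.59% of tested genes called lower). They were the processome proteins WDR43 (adjusted p = 0.0261), UTP15 (0.0320), WDR3 (0.0402), UTP4 (0.0453) and RRP9 (0.0459), the Pol I subunit POLR1B (0.0439), the large-subunit factor RRS1 (0.0298) and the helicase DDX21 (0.0166), by limma with the block. In that fit 30 members had an unadjusted p under 0.05, all lower (13.7% of tested genes lower). The pairing was read from the same values that the fit tests, so these calls rest partly on that choice. Both hairpins were compared with the same 3 controls, and the values of each are therefore given side by side and not counted as support for one another.

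**Figure D1:**
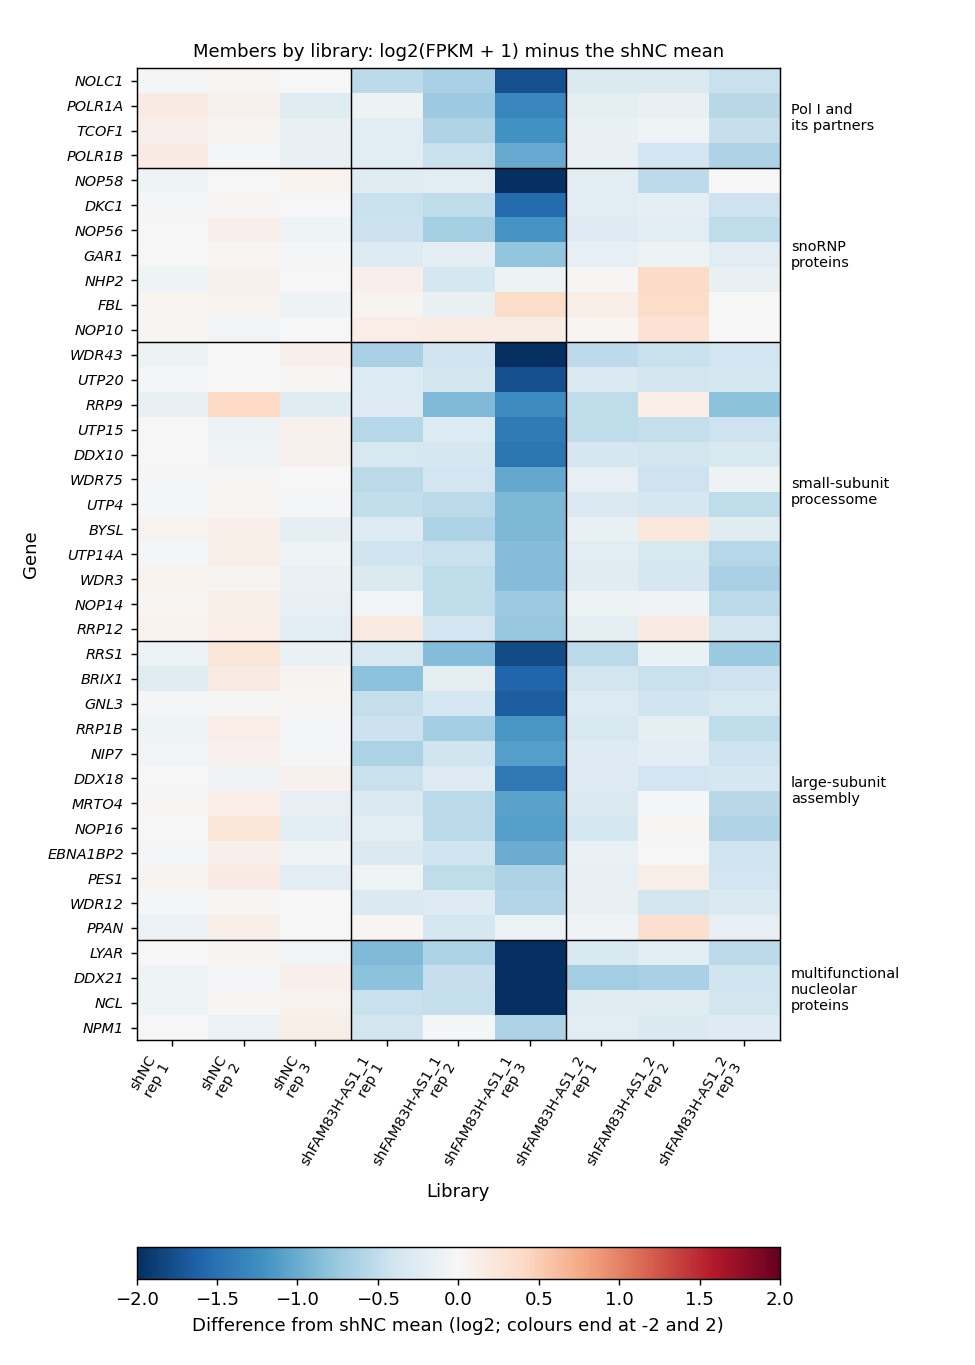
Each cell is a library's log2(FPKM + 1) minus the mean of the 3 shNC libraries, for the 39 tested members (rows, by subgroup and then by their log2 change with hairpin 1) in the 9 libraries (columns); colours end at -2 and 2. Most rows are blue in all 6 hairpin libraries and darkest in shFAM83H-AS1_1 replicate 3, while NHP2, FBL, NOP10 and PPAN are pale or red.

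The members' median was below the controls in each hairpin library, to a different extent. The members' median log2 difference from the control mean was -0.29, -0.44 and -1.10 in hairpin 1 replicates 1 to 3 and -0.24, -0.22 and -0.40 in hairpin 2 replicates 1 to 3, where the controls themselves lay at -0.02, 0.06 and -0.03. Per library, 30, 36 and 36 of the 39 members were below every control with hairpin 1 (31.7%, 31.5% and 52.1% of tested genes), and 28, 25 and 36 with hairpin 2 (25.7%, 38.5% and 28.4%). The members' summed level was 2213, 2265 and 2252 FPKM with shNC, 1832, 1843 and 1353 with hairpin 1 and 1959, 2095 and 1826 with hairpin 2. As a share of all FPKM of a library, that was 0.727%, 0.730% and 0.771%, then 0.592%, 0.582% and 0.416%, then 0.645%, 0.669% and 0.591%. Hairpin 1 replicate 3 was the lowest of the 9 libraries in 35 members, which was also so in 42.8% of all tested genes. Within hairpin 2, replicate 3 was the lowest in 27 members (31.9% of tested genes). A control library was the highest of the 9 in 33 members (36.3% of tested genes), and the hairpin 2 mean lay between the other group means in 35, with hairpin 1 lowest (35.3% of tested genes).

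Pol I and its partners comprised 2 subunits of the enzyme and 2 proteins that work beside it. None passed the test in the fit of 9 libraries, and voom called 0. An unadjusted p under 0.05 was found for 4 and 0, all lower (13.0% and 2.38% of tested genes lower). All 4 had negative log2 changes with both hairpins, with medians of -0.69 and -0.32. The first median was -0.41 without hairpin 1 replicate 3. NOLC1 (ENSG00000166197, hg38 chromosome 10, 102152176 to 102163871, plus strand), a chaperone of snoRNPs that also binds Pol I, was listed at 76, 79.8 and 77 FPKM with shNC, 53.7, 49.2 and 22.1 with hairpin 1 and 63, 63 and 56.7 with hairpin 2. The 3 groups did not overlap, with controls highest and hairpin 1 lowest. Its log2 changes were -0.98 (SE 0.27, limma adjusted p = 0.0855) and -0.35 (SE 0.27, limma adjusted p = 0.829). Without hairpin 1 replicate 3 the first was -0.58 with an adjusted p of 0.0317 in limma, with a smaller spread in the group.

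POLR1B (ENSG00000125630, hg38 chromosome 2, 112541915 to 112579818, plus strand), the second-largest subunit, had 7.99, 6.88 and 6.20 FPKM with shNC, 5.86, 4.87 and 2.96 with hairpin 1 and 6.23, 5.13 and 4.22 with hairpin 2. Hairpin 1 lay below all controls, and 1 hairpin 2 library reached the lowest control. Its log2 changes were -0.56 and -0.38 (limma adjusted p = 0.151 and 0.765), the first -0.33 without hairpin 1 replicate 3. TCOF1 encodes treacle, which ties Pol I transcription to rRNA modification and is altered in Treacher Collins syndrome. It had 18, 17.4 and 14.9 FPKM with shNC, 14.3, 10.7 and 6.67 with hairpin 1 and 15, 15.7 and 11.9 with hairpin 2, so that hairpin 2 overlapped with the controls and hairpin 1 did not. Its log2 change with hairpin 1 was -0.67, and -0.41 without replicate 3. POLR1A, the largest subunit, had 15.6 ± 2.41, 9.67 ± 4.43 and 12.5 ± 2.00 FPKM (SD, n = 3 each) and overlapped with the controls under both hairpins.

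The snoRNP proteins did not move as one. Of the box C/D core, NOP56 and NOP58 had negative log2 changes and the methyltransferase FBL did not; of the box H/ACA core, DKC1 and GAR1 had negative ones and NOP10 did not. The medians were -0.42 with hairpin 1 and -0.16 with hairpin 2 over all 7, -0.76 and -0.25 over the 3 box C/D proteins and -0.27 and -0.04 over the 4 box H/ACA proteins. The median of all 7 was -0.22 with hairpin 1 when its replicate 3 was left out. In hairpin 1 replicates 1 to 3 the median difference from the control mean was -0.24, -0.20 and -1.17 for box C/D. For box H/ACA it was -0.08, -0.28 and -0.44, so the gap between the particles with hairpin 1 rested largely on replicate 3. Limma called 0 of the 7 with either hairpin, and voom called 0. An unadjusted p under 0.05 was found for 3 and 0, all lower (13.0% and 2.38% of tested genes lower). NOP56 (ENSG00000101361, hg38 chromosome 20, 2652593 to 2658393, plus strand), a scaffold of the box C/D particle, was listed at 50.6, 54.6 and 48 FPKM with shNC, 37.4, 31.7 and 22 with hairpin 1 and 42.7, 43.7 and 35.6 with hairpin 2. Every hairpin library lay below every control, and the hairpins overlapped with each other. The log2 changes were -0.76 (SE 0.18, limma adjusted p = 0.0647) and -0.33 (SE 0.18, limma adjusted p = 0.764). NOP58, its partner in the scaffold, had 17.4, 18.6 and 19.6 FPKM with shNC, 15.5, 15.9 and 3.23 with hairpin 1 and 15.8, 12.5 and 18.3 with hairpin 2. Its log2 change of -0.88 with hairpin 1 rested on replicate 3 and was -0.22 without it.

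DKC1, the pseudouridine synthase dyskerin, altered in dyskeratosis congenita, had 85.6, 88.6 and 87.7 FPKM with shNC, 64, 61 and 29.4 with hairpin 1 and 75.4, 77.2 and 65.2 with hairpin 2. The 3 groups were in that order without overlap, hairpin 1 lowest, with log2 changes of -0.83 and -0.27 (limma adjusted p = 0.0992 and 0.868), the first -0.48 without hairpin 1 replicate 3. GAR1, which dyskerin binds, had 24.4, 25.1 and 23.9 FPKM with shNC, 20.2, 21.2 and 13.7 with hairpin 1 and 21.9, 22.6 and 20.8 with hairpin 2, and both hairpins lay below all controls. Its log2 change with hairpin 1 was -0.42, and -0.23 without replicate 3. NOP10, a small protein of the particle, had 156, 147 and 154 FPKM with shNC, 167, 170.1 and 168 with hairpin 1 and 157, 187 and 154 with hairpin 2. All 3 hairpin 1 libraries were above the controls, by 0.14 on the log2 scale (limma adjusted p = 0.402), and hairpin 2 overlapped with both. FBL, whose promoter is shown above, had 245, 250.2 and 223 FPKM with shNC, 248, 215 and 309 with hairpin 1 and 260.1, 308 and 241 with hairpin 2. Its groups overlapped, and its log2 change of 0.09 with hairpin 1 turned to -0.050 without replicate 3 and to -0.016 under quantile normalization or with GC trends removed. NHP2 had 69.8 ± 4.27, 64.8 ± 10.4 and 75.1 ± 14.7 FPKM (SD, n = 3 each) with overlap throughout, and 27.4% of its exon bases lie under RMND5B on the other strand, whose reads cannot be told apart where counting ignores strand.

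**Figure D2:**
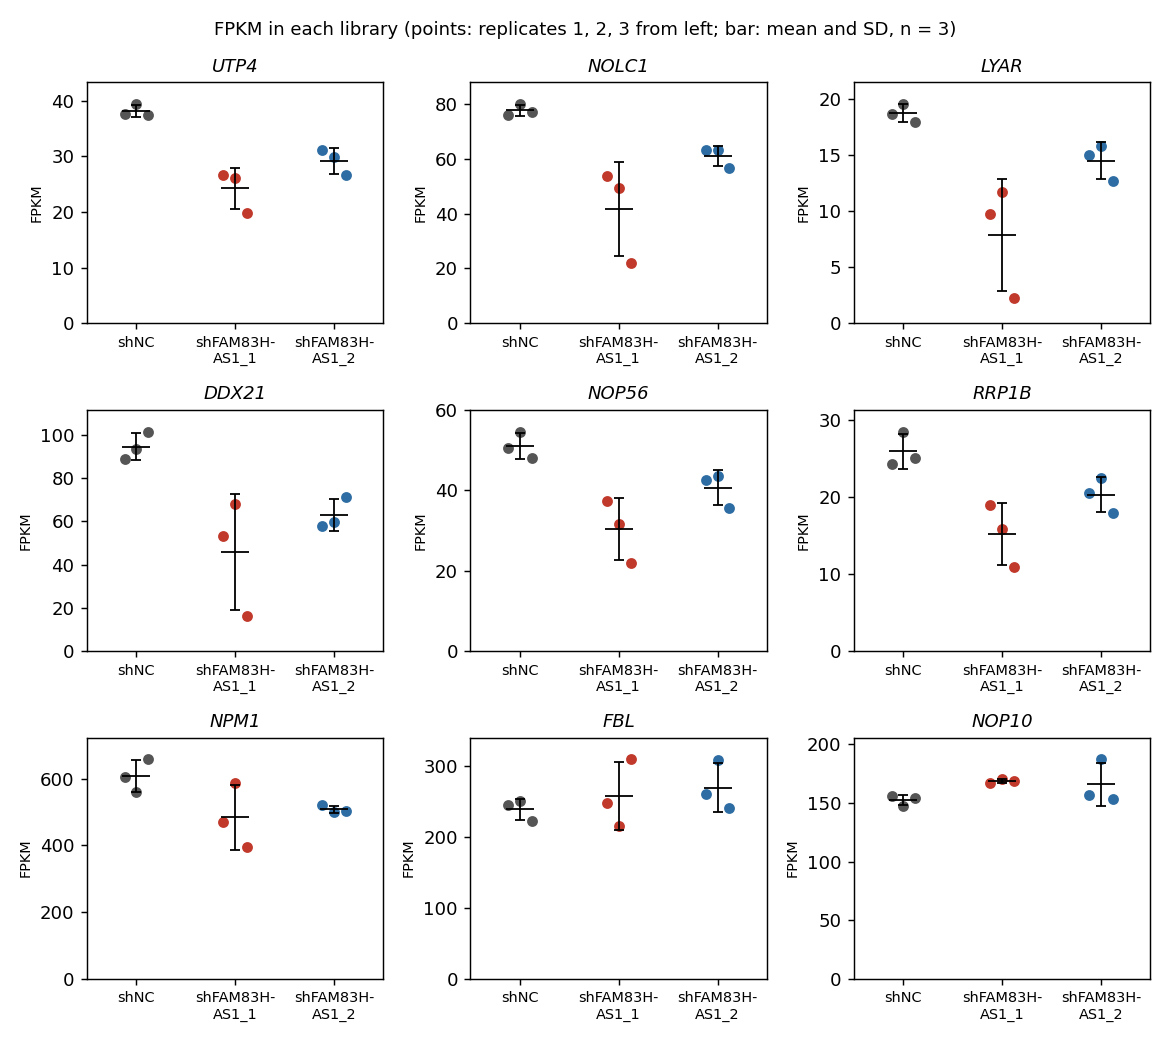
FPKM of 9 members in each library (points, replicates 1 to 3 from left to right) with the group mean and SD (bars, n = 3), on axes that start at 0. In UTP4, NOLC1, LYAR, DDX21, NOP56 and RRP1B both hairpin groups lie below the controls, in NPM1 1 hairpin 1 library lies among the controls, in FBL the groups overlap, and in NOP10 hairpin 1 lies above the controls.

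The small-subunit processome held the member that passed the test. All 12 of its genes had negative log2 changes with both hairpins, with medians of -0.65 and -0.36. All 3 libraries lay below all controls in 10 with hairpin 1 (15.3% of tested genes) and in 8 with hairpin 2 (10.9%). The first median was -0.42 when hairpin 1 replicate 3 was left out. UTP4 (ENSG00000141076, hg38 chromosome 16, 69131291 to 69231130, plus strand), altered in a childhood cirrhosis and part of the complex that binds the nascent precursor first, fell with hairpin 1. It was listed at 37.7, 39.4 and 37.4 FPKM with shNC, 26.8, 26.1 and 19.9 with hairpin 1 and 31.1, 29.8 and 26.6 with hairpin 2. Every hairpin library lay below every control, and the hairpins overlapped only in that hairpin 1 replicate 1 exceeded hairpin 2 replicate 3. The means were 38.1 ± 1.09, 24.2 ± 3.77 and 29.2 ± 2.33 FPKM (SD, n = 3 each), with log2 changes of -0.64 (SE 0.13, limma adjusted p = 0.0473) and -0.38 (SE 0.13, limma adjusted p = 0.606). The call was close to the threshold and held in 7 of 21 alternative fits, with adjusted p from 0.0269 to 0.285. It was 0.0468 without hairpin 1 replicate 3, 0.0333 without replicate 2, 0.0622 without replicate 1, 0.127 to 0.182 without any 1 control and 0.0755 to 0.0892 without any 1 hairpin 2 library.

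UTP14A, whose window above also holds TCGCGA, had 23.6, 26.1 and 22.6 FPKM with shNC, 18.1, 17.3 and 12.7 with hairpin 1 and 20.5, 19.1 and 15.9 with hairpin 2. Both hairpins lay below all controls, with log2 changes of -0.57 and -0.37 (limma adjusted p = 0.0845 and 0.703). WDR3, of the UTP-B complex, had 8.53, 8.48 and 7.31 FPKM with shNC, 6.46, 5.40 and 3.98 with hairpin 1 and 6.72, 6.22 and 4.80 with hairpin 2. Its groups with either hairpin lay below the controls, at -0.55 and -0.41 (limma adjusted p = 0.112 and 0.723). WDR43 and UTP15 are partners of UTP4 in the same complex. WDR43 had 27.6, 29.8 and 32.2 FPKM with shNC, 18.6, 22.4 and 6.41 with hairpin 1 and 20.5, 21.5 and 22.6 with hairpin 2. UTP15 had 4.71, 4.29 and 4.98 FPKM with shNC, 2.80, 3.67 and 1.13 with hairpin 1 and 2.99, 3.07 and 3.25 with hairpin 2. In both genes every hairpin library was below every control, and the log2 changes were -1.04 and -0.75 with hairpin 1 and -0.45 and -0.46 with hairpin 2. When hairpin 1 replicate 3 was left out, WDR43 had -0.53 and UTP15 -0.42 with hairpin 1. WDR75, a further partner, had 8.10 ± 0.223, 4.91 ± 1.30 and 6.79 ± 0.880 FPKM (SD, n = 3 each), also without overlap with the controls.

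BYSL, bystin, a late factor of the small subunit, had 31.2, 31.8 and 26.1 FPKM with shNC, 24.5, 19 and 15.5 with hairpin 1 and 26.7, 34.5 and 24.9 with hairpin 2. Hairpin 1 lay below all controls, at -0.59 (limma adjusted p = 0.106), while hairpin 2 overlapped with the controls at -0.06 (limma adjusted p = 0.961; 0.036 without hairpin 2 replicate 3). RRP12, an export factor, had 7.64, 8.02 and 6.14 FPKM with shNC, 8.35, 5.28 and 3.85 with hairpin 1 and 6.16, 8.24 and 5.39 with hairpin 2, and both hairpin groups overlapped with the controls. Its log2 change with hairpin 1 was -0.32, and -0.10 without replicate 3. Of the other 4, RRP9, a protein of the U3 snoRNP, had the widest spread between controls relative to its mean, with 39.3 ± 10.3 FPKM against 22.6 ± 8.36 and 30.02 ± 10.7 (SD, n = 3 each). UTP20 had the lowest control level of the tested members, 3.50 ± 0.0801 FPKM, and 1.84 ± 1.31 and 2.55 ± 0.103 with the hairpins (SD, n = 3 each), and the fewest reads of a tested member in a library, 54. The helicase DDX10 and NOP14 had log2 changes of -0.71 and -0.43 with hairpin 1 and -0.34 and -0.24 with hairpin 2.

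Of the 13 large-subunit genes, the 12 that were tested had negative log2 changes with hairpin 1 and 11 had them with hairpin 2, with medians of -0.67 and -0.30, the first -0.39 without hairpin 1 replicate 3. All libraries lay below all controls in 8 and 7 of them (15.3% and 10.9% of tested genes). Limma called 0 with either hairpin, and voom called 0. An unadjusted p under 0.05 was found for 10 and 0, all lower (13.0% and 2.38% of tested genes lower). RRP1B (ENSG00000160208, hg38 chromosome 21, 43659560 to 43696079, plus strand), a partner of nucleophosmin in this pathway, was listed at 24.2, 28.4 and 25 FPKM with shNC, 18.9, 15.8 and 10.9 with hairpin 1 and 20.5, 22.5 and 17.9 with hairpin 2. Every hairpin library was below every control, with log2 changes of -0.76 (SE 0.18, limma adjusted p = 0.0657) and -0.34 (SE 0.18, limma adjusted p = 0.757). NIP7, needed for processing of the precursor, had 23.9, 26.4 and 24.3 FPKM with shNC, 15.6, 18.6 and 11 with hairpin 1 and 20.7, 21.3 and 18.3 with hairpin 2. Again no hairpin library reached a control, at -0.71 and -0.29 (limma adjusted p = 0.0647 and 0.765).

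WDR12 and PES1 act with BOP1 in the PeBoW complex. WDR12 had 6.97, 7.32 and 7.27 FPKM with shNC, 5.68, 5.88 and 4.46 with hairpin 1 and 6.42, 5.34 and 5.73 with hairpin 2, below all controls with both, at -0.38 and -0.26. PES1 had 52.1 ± 7.04, 39.7 ± 8.58 and 47.5 ± 8.59 FPKM (SD, n = 3 each) and overlapped with the controls under both hairpins. RRS1, which helps to bring in the 5S particle, had the lowest log2 change of the subgroup with each hairpin. It was listed at 22.8, 29.6 and 22.6 FPKM with shNC, 19.6, 13.2 and 6.43 with hairpin 1 and 16.7, 22.5 and 14.4 with hairpin 2, at -0.99 and -0.47 (limma adjusted p = 0.116 and 0.807). Both groups lay below the controls, hairpin 2 replicate 2 by the least, and without hairpin 1 replicate 3 the first value was -0.59. PPAN, at the other end, had 3.60, 4.40 and 3.98 FPKM with shNC, 4.10, 2.92 and 3.61 with hairpin 1 and 3.68, 5.22 and 3.45 with hairpin 2. It overlapped everywhere (-0.14 and 0.02, the second -0.13 without hairpin 2 replicate 2 and -0.12 with GC trends removed), and 59.8% of its exon bases are shared with genes of the same strand in GENCODE 29, P2RY11 and the readthrough with it, so its level is uncertain. The rest, the GTPase GNL3 (nucleostemin), BRIX1, DDX18, MRTO4, NOP16 and EBNA1BP2, had log2 changes between -0.87 and -0.56 with hairpin 1 and between -0.41 and -0.18 with hairpin 2. NOP2 was listed at 0 to 0.123 FPKM in the 9 libraries; 54.4% of its exon bases are shared with a gene model on the same strand in GENCODE 29, and whether its reads were assigned elsewhere or left out was not tested.

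The nucleolar proteins with several roles had the lowest subgroup median with hairpin 1, -1.12, which was -0.55 without replicate 3, and -0.32 with hairpin 2. All 4 were negative with both. LYAR (ENSG00000145220, hg38 chromosome 4, 4267701 to 4290154, minus strand), a zinc finger protein of the nucleolus, was listed at 18.7, 19.6 and 18 FPKM with shNC, 9.72, 11.7 and 2.25 with hairpin 1 and 15, 15.9 and 12.7 with hairpin 2. The groups did not overlap, and hairpin 1 replicate 3 stood far below the rest. The log2 changes were -1.37 (SE 0.41, limma adjusted p = 0.0994) and -0.35 (SE 0.41, limma adjusted p = 0.895); without that library the first was -0.76 with a limma adjusted p of 0.0292. DDX21 (ENSG00000165732, hg38 chromosome 10, 68956170 to 68985068, plus strand), a helicase that binds both rDNA and snoRNAs, had 89, 93.3 and 101 FPKM with shNC, 53.3, 68.1 and 16.2 with hairpin 1 and 57.9, 59.7 and 71.4 with hairpin 2. Both hairpins were below all controls and overlapped with each other, at -1.25 (SE 0.41, limma adjusted p = 0.118) and -0.58 (SE 0.41, limma adjusted p = 0.81). Leaving out hairpin 1 replicate 3 gave -0.64 for the first. NCL, nucleolin, had 226 ± 12.5, 127 ± 63.2 and 185 ± 8.81 FPKM (SD, n = 3 each), and both hairpins lay below all controls. NPM1, nucleophosmin, was the most abundant member, with 605, 560.1 and 657 FPKM with shNC, 469.8, 588 and 394 with hairpin 1 and 519.5, 498 and 504 with hairpin 2. Hairpin 2 lay below all controls, with a log2 change of -0.26, while hairpin 1 replicate 2 lay within them; with hairpin 1 it was -0.34, and -0.21 without replicate 3. NPM1 has processed pseudogenes that can share its reads, so its level is uncertain.

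**Figure D3:**
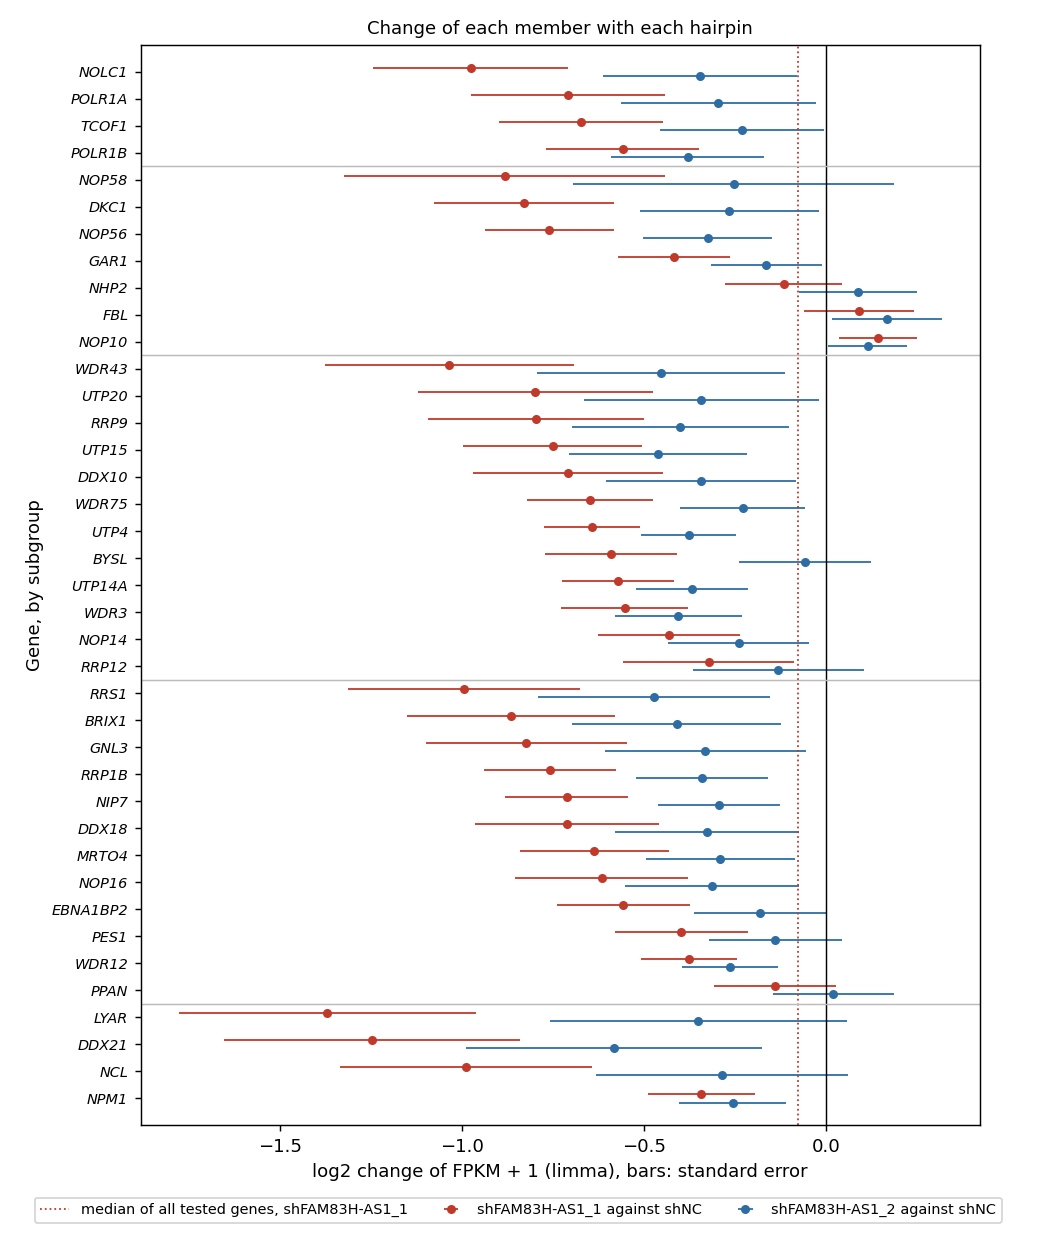
Points are limma log2 changes of FPKM + 1 against shNC for the 39 tested members, with shFAM83H-AS1_1 in red and shFAM83H-AS1_2 in blue, and bars are standard errors from the fit of 9 libraries; grey lines part the subgroups and the dotted line is the median of all tested genes with shFAM83H-AS1_1 (-0.08). All members but NHP2, FBL, NOP10 and PPAN have both points at or left of zero, the red left of the blue.

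The hairpins were also set against each other. Hairpin 2 was above hairpin 1 in 38 of 39 members, with a median difference of 0.38 on the log2 scale where all tested genes had 0.06. Limma called 0 members in this comparison (0.0926% of tested genes called, 0.0842% higher and 0.00842% lower with hairpin 2); 8 had an unadjusted p under 0.05, all higher with hairpin 2 (4.34% of tested genes higher and 3.66% lower), and voom called 0. In 5 members all hairpin 2 libraries lay above all hairpin 1 libraries (6.13% of tested genes): LYAR at 1.02 (limma adjusted p = 0.592), NCL at 0.70, NOLC1 at 0.63, DKC1 at 0.56 and BYSL at 0.53 (limma adjusted p = 0.525). Without hairpin 1 replicate 3 the median difference was 0.12, with 9 members negative. A difference between the hairpins in the members was not shown by this test, which does not show that they act alike.

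Other genes of the pathway, listed by role, had the same sign with a smaller size. Other small-subunit factors had a median of -0.44 with hairpin 1 (42 of 45 negative) and -0.20 with hairpin 2 (39 of 45). Of these, 2 passed with hairpin 1: UTP18, a processome protein, fell from 28.2 ± 1.45 to 9.70 ± 1.25 FPKM (SD, n = 3 each; log2 change -1.45, limma adjusted p = 0.00176), and TSR1, a GTPase-like late factor, fell from 22.4 ± 0.480 to 12 ± 2.86 FPKM (-0.87, limma adjusted p = 0.0418). Limma called 0.64% of tested genes lower with hairpin 1. Voom called 1 of these 45 (0.32% of tested genes lower). Other large-subunit factors had medians of -0.44 (45 of 49 negative) and -0.17 (42 of 49), and RPF1, a factor of the large-subunit precursor, fell from 36.3 ± 2.64 to 21.4 ± 5.16 FPKM with hairpin 1 (-0.76, limma adjusted p = 0.049), where voom called 0. With hairpin 2, TSR1 had 17.5 ± 2.06 and RPF1 27.9 ± 0.542 FPKM (SD, n = 3 each). Limma and voom called 0 in either list with hairpin 2. In limma 2 genes in each had an unadjusted p under 0.05, all lower (2.38% of tested genes lower). Without hairpin 1 replicate 3, 14 of 45 and 13 of 49 were lower at that p with hairpin 2 (837 of 11875 tested genes). The other Pol I machinery had medians of -0.40 and -0.08 (11 of 13 negative with each), with the initiation factor RRN3 at -0.85 and the subunit POLR1F at -0.70 with hairpin 1. Other snoRNP proteins and their assembly factors had -0.24 and -0.07 (8 of 11 negative with each), with the chaperone subunit PIH1D1 at 0.59 and ZNHIT6 at -0.85. The RNA exosome and trimming enzymes had -0.31 and -0.08 (13 and 14 of 17 negative), with the exosome cofactor MPHOSPH6 at -0.86 and the exonuclease ISG20L2 at -0.41. These last 3 lists had 0 calls by limma and by voom, with 3, 4 and 4 genes at an unadjusted p under 0.05 in limma with hairpin 1 and 0 with hairpin 2. All but 1 of the snoRNP list were lower. Over all tested genes 13.0% were lower and 12.4% higher at that p with hairpin 1. The medians with hairpin 1 without replicate 3 were -0.25 for the small-subunit, -0.26 for the large-subunit, -0.24 for the Pol I, -0.16 for the snoRNP and -0.15 for the exosome list.

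The cytosolic ribosomal proteins, the products that these factors help to assemble, had the opposite sign. With hairpin 1, 61 of 62 had a positive log2 change, with a median of 0.35, and all 3 libraries lay above all controls in 39 (14.4% of tested genes). With hairpin 2 the median was 0.13, with 55 of 62 positive and 15 above all controls (11.1%). Limma and voom called 0 with either hairpin. In limma 29 and 0 genes had an unadjusted p under 0.05, all higher (12.4% and 4.29% of tested genes higher). RPLP2, a protein of the ribosomal stalk, had 207, 204 and 184 FPKM with shNC, 263, 249 and 341 with hairpin 1 and 209.8, 268 and 222 with hairpin 2, and RPL23A had a log2 change of 0.56 with hairpin 1. Replicate 3 was the most apart here too, and without it the median with hairpin 1 was 0.18 with 57 of 62 positive; with quantile normalization of all libraries it was 0.16, and with hairpin 2 it was then 0.056 with 43 of 62 positive. The ribosomal proteins and the members were therefore unequal in these libraries, and because each library is scaled to its own depth this says nothing of the amount of either per cell.

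**Figure D4:**
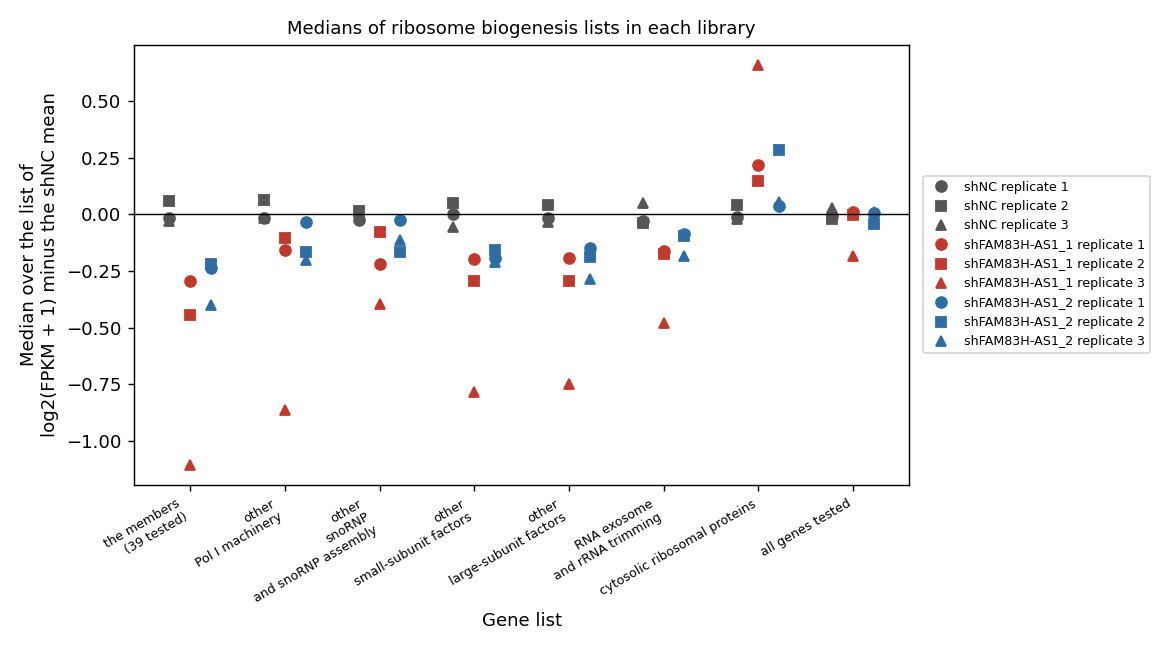
Median over each gene list of log2(FPKM + 1) minus the shNC mean, by library (colour: group; circle, square and triangle: replicates 1, 2 and 3). The members lie lowest, with -1.10 in shFAM83H-AS1_1 replicate 3 and between -0.44 and -0.22 in the other hairpin libraries, in each of which the other biogenesis lists lie between the members and zero and the cytosolic ribosomal proteins lie above zero.

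Apart from their role, the members had a high median level, and some held a place for snoRNAs. The median level of those tested was 24.8 FPKM in control cells, from 3.50 for UTP20 to 607 for NPM1. All tested genes had a median of 5.94, and UTP20, PPAN (3.99), UTP15 (4.66) and DDX10 (5.53) lay below it. Median GC content was 48.0% against 48.8%, and median length of the gene model 4203 against 4613 bp. Within their bounds 7 of the 39 tested members (17.9%) held an annotated snoRNA, against 221 of all tested genes (1.86%): GNL3, PPAN, NCL, WDR43, NOP56, NOP58 and DKC1. These hosts had a median log2 change of -0.83 with hairpin 1 and -0.29 with hairpin 2, and the other members -0.64 and -0.30. The split was not made without hairpin 1 replicate 3, where the hosts' differences from the control mean ran from -2.21 to -0.11. In replicates 1 and 2 they ran from -0.65 to 0.03 and from -0.67 to -0.20. A larger fall of the hosts apart from that library was therefore not shown. The snoRNAs themselves were not analysed here. Exons of some members overlap those of other genes in GENCODE 29, and since the strand setting is not known their levels are uncertain to that extent: 20.0% of the exon bases of NOP16, 20.2% of NIP7, 17.1% of NOP14 and 17.1% of WDR3, each with a gene of the other strand. In control cells HIGD2A, which overlaps NOP16, had 33.9 FPKM, and the partners of the other 3 had 0.965 FPKM or less.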

How the data were processed

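RNA-seq of 9 libraries of MDA-MB-468 cells was analysed from 1 table of FPKM values per gene that the authors deposited. Per the submitters' processing notes, the build was hg38 and the tools were HTSeq 0.6.0, HISAT2 2.1.0 and Bowtie2 2.2.3, each with no role stated. Neither strand setting nor annotation release is given in the sources used here. Groups and replicate numbers came from the sample titles. Of 31005 lines, 1 stray line was left out. A name table gave symbols for 30883 genes and GENCODE 29 gave a further 107, and coordinates are those of the deposited table. Whole reads were recovered from the deposited FPKM for 100% of genes within 1e-05 reads, giving depths of 15270673 to 18115070 reads; they limit precision for the lowest members and entered 1 alternative, voom.

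The 11875 genes that reached 1 FPKM in 3 or more libraries were tested on log2(FPKM + 1) with limma 3.58.1 (R 4.3.3), 3 groups in 1 fit, variances following the mean, two-sided, with Benjamini-Hochberg adjustment over all tested genes and 0.05 as threshold; the steps were tested on simulated data. No set test was run on the members. Values of every library are given for members past the threshold, for the 3 of each subgroup with the smallest p for the average of both hairpins, and for the highest and lowest of each subgroup; of the other pathway lists, those past the threshold or otherwise the 2 with the smallest p. NOP10 and FBL promoters, POLR1A and the other members given by mean, and RPLP2 values by library were added beside that rule. The members and lists were chosen with earlier results of these data known.

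Alternatives were a pseudocount of 0.1, no filter, a filter of 5 FPKM, median-of-ratios and quantile scaling, a replicate block, removal of GC trends, a robust variance model, voom, fits of only the 2 groups compared, and leaving out each library. The labels name no shared batch. Between libraries of shNC and hairpin 2 with the same number, the correlations of their deviations were 0.196, 0.351 and 0.394, each above 0.1. Those of hairpin 1 correlated at 0.183, -0.393 and -0.246 with shNC. Correlations between differently numbered libraries were not examined, so a pairing by number was not established. The main fit took no libraries as pairs. The replicate block was only an alternative, and it was fitted for hairpin 1 as well. Promoters came from RefSeq (GRCh38.p14), and overlaps of exons and the snoRNAs inside genes from GENCODE 29. Python 3.11.15 (matplotlib 3.10.9, pandas 2.3.3, numpy 2.4.6) made the summaries and plots.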

Additional observations from a re-analysis of the deposited data

Results flagged for a closer look

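UTP18, a processome protein listed with the other small-subunit factors, differed between the hairpins: hairpin 2 was above hairpin 1 by 0.97 on the log2 scale (SE 0.13, limma adjusted p = 0.0347, the difference itself tested over all genes). Its level was 28.2 ± 1.45 FPKM with shNC, 9.70 ± 1.25 with hairpin 1 and 20.0 ± 2.49 with hairpin 2 (SD, n = 3 each), without overlap between any groups. No library of hairpin 1 stood apart in it, at 10.3, 10.6 and 8.28 FPKM. The cause was not tested. Groups of 3 libraries were not searched for outliers.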

How the results depend on the processing

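The median log2 change of the members kept its sign in every alternative, between -0.82 and -0.41 with hairpin 1, between -0.33 and -0.25 with hairpin 2 and between 0.12 and 0.51 for hairpin 2 minus hairpin 1. The number of members called with hairpin 1 was 1 and rested on a p near the threshold. It was 0 with a pseudocount of 0.1, no filter, median-of-ratios scaling, voom and only the 2 groups compared, and 2 with GC trends removed. When 1 library was left out it was 0 to 14, with 4.4% of tested genes called lower where it was 14. With the replicate block it was 0 in the fit of all 9 libraries and in that of only the 2 groups, and 9 with the block and GC trends removed together. Shares of all tested genes are not given beside the counts with GC trends removed. Those counts therefore do not set the members against other genes. With hairpin 2 it was 0 except for 8 with the block in the fit of only the 2 groups, the pairs described above. All genes called with hairpin 1 numbered 187, and 0 to 1008 in the alternatives. The target passed with hairpin 1 except with only the 2 groups (-1.35, limma adjusted p = 0.0586) and with the block there (-1.35, 0.161). With hairpin 2 it passed with only the 2 groups (-0.96, 0.0149), with the block there (-0.96, 0.00503), with the block and GC trends removed (-1.02, 0.0426) and without hairpin 1 replicate 3 (0.0180), and ranged from -1.06 to -0.91 when 1 library was left out. The direction of FBL with hairpin 1 turned to -0.016 with quantile normalization, and to -0.016 with GC trends removed, with or without the block; when 1 library was left out it ranged from -0.050 to 0.21. PPAN with hairpin 2 turned to -0.12 with GC trends removed, with or without the block, and ranged from -0.13 to 0.11 when 1 library was left out, and BYSL with hairpin 2 from -0.19 to 0.036. The share of members' promoters with CACGTG was 15.2% in place of 39.4% when the 50 bases after the start were left out. Fewer samples or genes were fitted in some of these alternatives; otherwise the cause was not tested. Counting error limits UTP20, with 54 reads in its lowest library, and 3 libraries a group limit every call.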
